A study of Mus musculus with 12 samples.

Results

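The 38 genes described here encode enzymes and transporters of glycolysis, of glycogen metabolism and of the conversion, export and mitochondrial entry of pyruvate. They were taken by gene symbol from the 15113 genes of the deposited count table, and all 38 were present and passed the filter on low counts, which left 12730 genes to test. C2C12 cells are mouse myoblasts that form multinucleated myotubes once serum is withdrawn, and such myotubes were exposed for 16 h to 20 μM BAM15, a mitochondrial protonophore, in DMSO, or to DMSO vehicle alone. There were 6 libraries of each condition, from a single cell line grown in high-glucose medium. No transgene or deletion is given for these cells. The labels do not say whether the libraries of a condition came from separate cultures, so the p-values measure the spread between these libraries, part of which may be technical.

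Glycolysis splits glucose into pyruvate in the cytosol, and many of its steps are catalysed by several isoforms encoded by different genes. Skeletal muscle uses a characteristic set of them, which serves rapid ATP supply and the storage and breakdown of glycogen. Pyruvate is either reduced to lactate and exported by monocarboxylate transporters, or it enters mitochondria and is oxidised by the pyruvate dehydrogenase complex, which is switched off by its kinases. A protonophore dissipates the mitochondrial proton gradient and so separates respiration from ATP synthesis. From general knowledge, 11 of the 38 genes were assigned as the muscle isoform of their step (Hk2, Pfkm, Pfkfb1, Aldoa, Pgam2, Eno3, Ldha, Slc16a3, Pdk4, Pygm and Gys1), and the other 27 were grouped as other isoforms or single-isoform genes.

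QuantSeq libraries were read near the poly(A) tail, so that a transcript gives about the same number of reads whatever its length, and values are counts scaled by TMM library size, called normalized counts below. Total counts on genes ranged from 13983725 to 18751780 in the BAM15 libraries and from 15299135 to 18866728 in the vehicle libraries. All 24 myotube markers were in the table, and their summed normalized counts lay between 619933 and 712773 with vehicle and between 548181 and 738735 with BAM15. By edgeR at an adjusted p below 0.01, 2 of these 24 rose and 5 fell, where 22.0% of all tested genes rose and 20.3% fell. The counts for the other marker lists below stand against the same shares. Acta1, skeletal actin, rose from 127952 ± 6864 to 175768 ± 14301 and carries much of the sum, while Casq1, calsequestrin, and the factor Mef2c fell by 0.92 and 0.78 on the log2 scale. Of 11 markers of undifferentiated myoblasts in the table, 8 fell and 1 rose, and their sum lay between 7943 and 8936 with vehicle and between 3281 and 4362 with BAM15. Fibroblast markers summed to between 36011 and 43202 with vehicle and between 27168 and 39304 with BAM15, with 4 of 6 tested lower. Of the adipocyte markers listed, Pparg and Fabp4 were analysed here. They summed to between 4.12 and 18.1 with vehicle and between 47.5 and 207 with BAM15. The rise was that of Pparg alone, since Fabp4 lay at 0 to 2.91 normalized counts throughout and did not pass the filter. The highest Pparg value, 206, came from BAM15 library 5, and the other BAM15 libraries held 46.5 to 67.7. Fewer cells of a type and less RNA per cell cannot be told apart in these bulk libraries, and the part of these markers in the results below was not tested.

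After BAM15, 3 of the 4 genes of lactate formation and export passed the test at an adjusted p below 0.01, where 42.3% of all tested genes did. Slc16a3, the lactate exporter MCT4 of glycolytic muscle, fell about 4-fold, with normalized counts of 592 ± 63.6 with vehicle and 145 ± 24.6 with BAM15 (mean ± SD, n = 6). Slc16a1, which encodes the widely expressed transporter MCT1, rose from 823 ± 69.0 to 2059.5 ± 279.8. Ldha, the muscle subunit of lactate dehydrogenase, fell from 5274 ± 277 to 2619 ± 528. Outside this branch, Pfkl, the liver-type phosphofructokinase, fell from 1212 ± 166 to 362 ± 60.1, Pdk1, a kinase that inhibits pyruvate dehydrogenase, fell from 461 ± 62.5 to 218 ± 50.3, and Hk2, the muscle hexokinase, rose from 2155 ± 168 to 3898 ± 189. The subunits of pyruvate dehydrogenase, the mitochondrial pyruvate carrier and the 4 glycogen enzymes did not pass the test.

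The conditions were compared by a quasi-likelihood test in edgeR, with p-values adjusted over all tested genes (Benjamini-Hochberg). In this test 13 of the 38 genes had an adjusted p-value below 0.01, a share below the 42.3% of all tested genes that passed. Of these, 2 rose (Hk2 and Slc16a1), where 22.0% of all genes rose. The other 11 fell (Hk1, Pfkl, Tpi1, Pgam1, Pgam2, Eno3, Pkm, Ldha, Slc16a3, Pdk1 and Pdk3), where 20.3% of all genes fell. With the further requirement of a base mean above 50 and a change of more than 2-fold, 5 genes passed, against 7.28% of all genes. Slc16a1 was the 1 riser, where 3.70% of all genes rose past these thresholds, and Slc16a3, Pfkl, Ldha and Pdk1 were the 4 that fell, where 3.58% of all genes fell. The 6 BAM15 libraries lay entirely above or below the 6 vehicle libraries for 13 of the 38 genes, against 34.2% of all genes, and these were the same 13 genes. The median log2 fold change of the 38 genes was −0.09, beside 0.02 over all tested genes. Among the muscle isoforms, 1 of 11 rose and 4 fell, and among the others 1 of 27 rose and 7 fell. Added together, the 38 genes took 0.705% of the normalized counts with vehicle and 0.602% with BAM15.

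**Figure D1:**
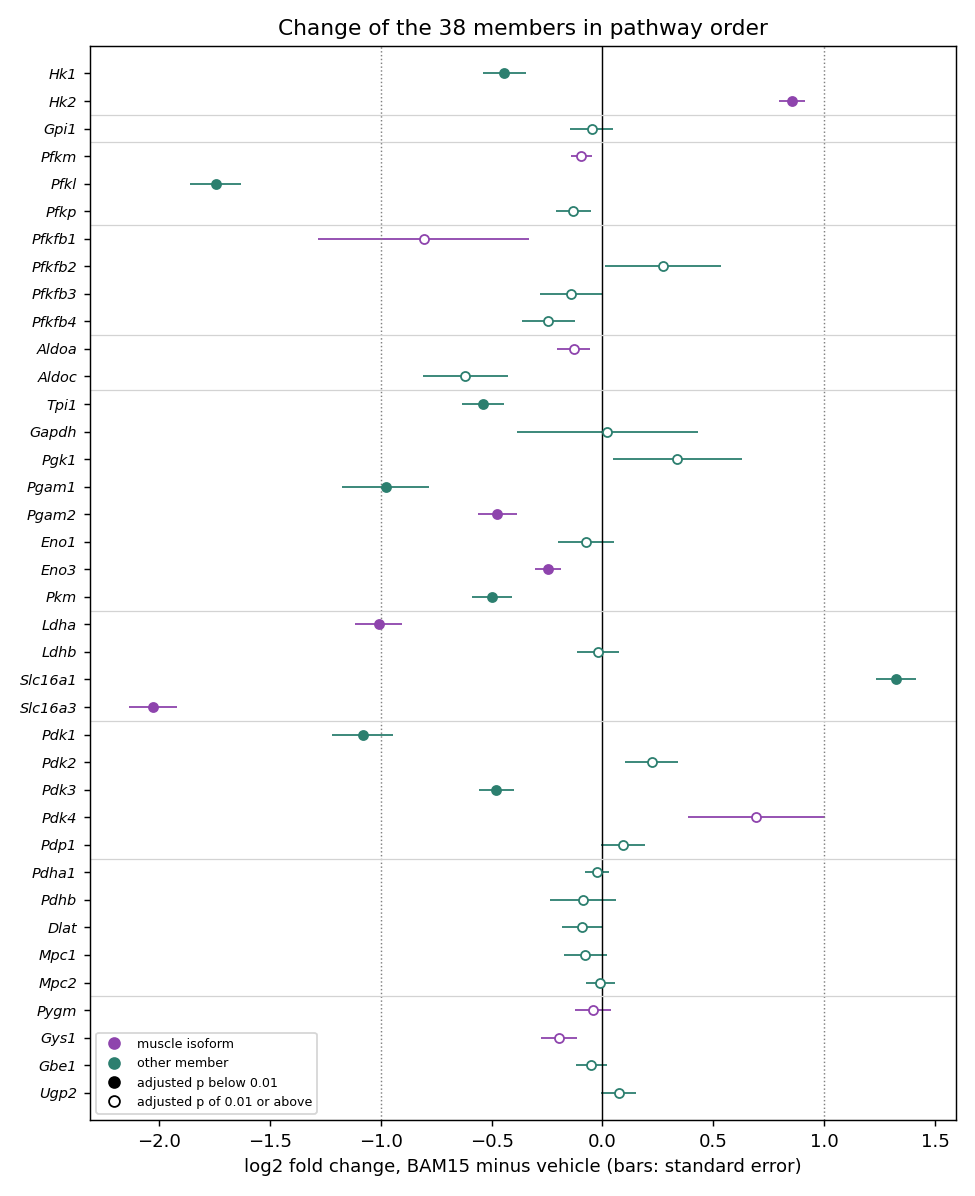
Log2 fold change (BAM15 minus vehicle, x axis) of each of the 38 genes in pathway order, with its standard error as a bar, muscle isoforms in purple, others in green, filled points at adjusted p below 0.01 and dotted lines at a 2-fold change. Slc16a3 at −2.03 and Slc16a1 at 1.32 are the extremes, and most open points lie near 0.

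Genes that moved to opposite sides were compared in their promoter sequence. RefSeq start sites were found for 37 of the 38 genes, and the 250 bases before each start were read. The motif ACGTG, searched on both strands, is a form of the core that hypoxia-inducible factors recognise. The form GCGTG was not searched. ACGTG also lies within CACGTG, the E-box bound by MYC, MondoA and other basic helix-loop-helix factors. It was present before at least 1 start of 16 of the 37 genes and of 18.5% of all 27025 genes with a RefSeq start, expressed here or not. Counted by start, it lay before 20 of 58 starts of these genes (34.5%) and before 16.6% of all 32851 starts. It was present for both of the genes that rose, for 5 of the 11 that fell and for 9 of the 24 that did not pass the test. CACGTG was found in 6 of the 37 genes and in 6.86% of all genes. These matches are descriptions of the letters in each window and not evidence of a bound factor. The windows of a transporter that fell and one that rose, of the lactate dehydrogenase that fell and of the hexokinase that rose are given here, 5′ to 3′ on the gene's strand (GRCm38.p6), with capitals marking ACGTG, its reverse complement CACGT, or both where they overlap.
Slc16a3, chr11:120948817-120949066, plus strand: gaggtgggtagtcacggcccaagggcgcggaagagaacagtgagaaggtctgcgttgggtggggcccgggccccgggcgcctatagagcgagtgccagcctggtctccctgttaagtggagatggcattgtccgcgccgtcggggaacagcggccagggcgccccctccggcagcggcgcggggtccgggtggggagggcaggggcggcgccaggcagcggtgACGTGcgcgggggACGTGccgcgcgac
Slc16a1, chr3:104638414-104638663, plus strand: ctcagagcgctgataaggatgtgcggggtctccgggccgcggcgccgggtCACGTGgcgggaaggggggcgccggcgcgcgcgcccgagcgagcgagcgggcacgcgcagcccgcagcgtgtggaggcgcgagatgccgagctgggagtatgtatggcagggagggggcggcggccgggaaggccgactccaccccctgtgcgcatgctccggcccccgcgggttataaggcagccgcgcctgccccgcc
Ldha, chr7:46845554-46845803, plus strand: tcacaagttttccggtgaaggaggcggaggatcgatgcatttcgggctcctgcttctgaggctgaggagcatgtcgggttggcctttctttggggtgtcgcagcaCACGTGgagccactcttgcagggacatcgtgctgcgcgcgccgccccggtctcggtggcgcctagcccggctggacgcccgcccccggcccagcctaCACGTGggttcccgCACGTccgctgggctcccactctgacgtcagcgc
Hk2, chr6:82774455-82774704, minus strand: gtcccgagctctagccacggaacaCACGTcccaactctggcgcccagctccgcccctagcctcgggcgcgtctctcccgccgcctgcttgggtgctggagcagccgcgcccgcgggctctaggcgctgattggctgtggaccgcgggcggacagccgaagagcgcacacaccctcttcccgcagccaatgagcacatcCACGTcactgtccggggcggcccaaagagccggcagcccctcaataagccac
The windows of Slc16a3, which fell, and of Hk2, which rose, each held the motif at 2 places and no CACGTG, while those of Ldha, which fell, and Slc16a1, which rose, both held CACGTG. Ldha has another RefSeq start, whose window did not hold ACGTG. Before the starts of Pfkl and Pdk1 ACGTG was not found either, which does not cover the form GCGTG.

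Hexokinases trap glucose in the cell as glucose 6-phosphate. Hk1 (chromosome 10, 62268855 to 62379908), the ubiquitous form, had 2051 (lowest), 2302.5 (median) and 2660 (highest) normalized counts with vehicle, and 1421, 1629 and 2046 with BAM15. The groups did not overlap, and the log2 fold change was −0.44 (standard error 0.10, edgeR adjusted p = 0.00121). Hk2 (chromosome 6, 82725025 to 82774454), the insulin-responsive muscle form, ranged from 1866 through a median of 2169 to 2326 with vehicle and from 3723 through 3825 to 4211 with BAM15. Every BAM15 library was above every vehicle library, and Hk2 rose by a log2 fold change of 0.85 (standard error 0.06, edgeR adjusted p = 1.34e-08). Hk2 supplied 48.3% ± 3.19 of the hexokinase counts with vehicle and 69.7% ± 2.86 with BAM15, each count standing for a 3′ end and not for transcript length. The sum of both genes was 4468 ± 291 with vehicle and 5599 ± 378 with BAM15. Gpi1, which interconverts the glucose and fructose phosphates, was 3628 ± 293 with vehicle and 3507 ± 574 with BAM15, with overlapping groups and an edgeR adjusted p of 0.695.

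Phosphofructokinase commits sugar to glycolysis, and its 3 genes encode muscle, liver and platelet types. Pfkl (chromosome 10, 77986947 to 78010083) had 1025, 1186 and 1497 normalized counts as the lowest, median and highest vehicle values and 295, 369.6 and 433 with BAM15. No BAM15 library came near the vehicle range, and Pfkl fell by 1.74 on the log2 scale (standard error 0.11, edgeR adjusted p = 7.17e-09). Pfkm, the muscle type, was 4103 ± 95.1 with vehicle and 3841 ± 184 with BAM15, which gave −0.10 on the log2 scale and missed the threshold (edgeR adjusted p = 0.0994). Pfkp was 1299 ± 66.0 and 1186 ± 149.9, also without passing (edgeR adjusted p = 0.170), but 50.0% of the windows searched in its 3′ end lie in a region where exons of Pitrm1 run on the opposite strand, and the strand used for counting is not given in the sources used here. Summed over the 3 genes, phosphofructokinase counts were 6614 ± 268 with vehicle and 5389 ± 343 with BAM15, without overlap. The share of Pfkm in the sum of Pfkm and Pfkl was 77.3% ± 2.21 with vehicle and 91.4% ± 1.12 with BAM15. Pfkp is not part of that share. In the sum of Pfkm and Pfkp, Pfkm held 76.0% ± 0.959 with vehicle and 76.5% ± 2.01 with BAM15.

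The 4 bifunctional enzymes that make and break fructose 2,6-bisphosphate, the activator of phosphofructokinase, did not pass the test. Pfkfb3 was 115 ± 17.4 with vehicle and 104 ± 20.0 with BAM15, and Pfkfb4 was 108 ± 10.5 and 91.4 ± 14.6. Pfkfb1 was at 12.2 ± 5.94 with vehicle and 6.89 ± 4.41 with BAM15 and Pfkfb2 at 11.6 ± 2.22 and 14 ± 5.33, and Pfkfb1 had 0 counts in BAM15 library 2, so changes in these genes were hardly detectable at this depth. Aldolase splits the six-carbon sugar. Aldoa, the muscle form and the most counted of the 38 genes with vehicle, was 24844 ± 1497 with vehicle and 22704 ± 2511 with BAM15 (log2 fold change −0.13, edgeR adjusted p = 0.152). Aldoc, the brain form, was 45.3 ± 11.3 and 29.5 ± 6.19, and its log2 fold change of −0.62 missed the threshold (standard error 0.19, edgeR adjusted p = 0.0129).

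**Figure D2:**
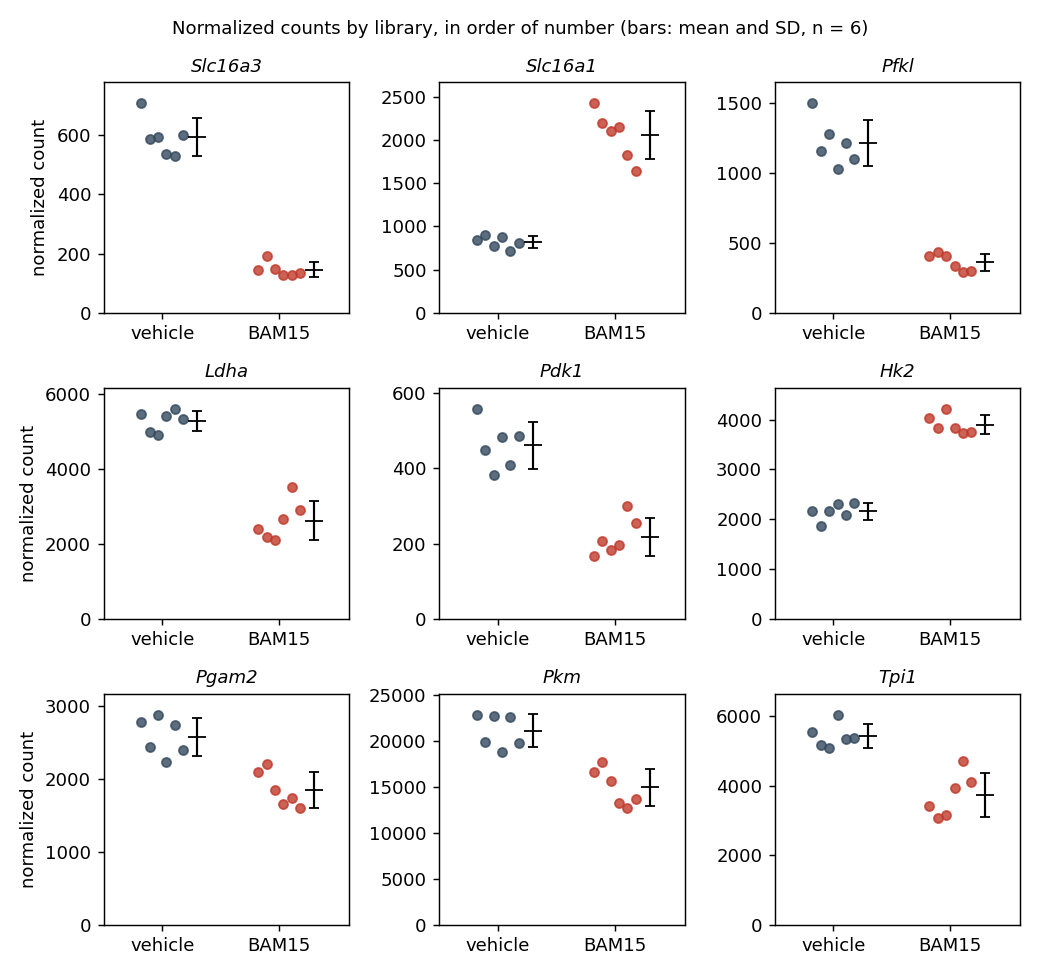
Normalized counts (y axis, from 0) of 9 genes in each of the 6 vehicle and 6 BAM15 libraries, drawn in order of library number, with the mean and SD beside them. Slc16a1 and Hk2 are higher in all BAM15 libraries and the other 7 genes are lower in all of them, and within BAM15 the libraries numbered 4 to 6 sit above numbers 1 to 3 for Ldha and Tpi1 and below them for Pfkl and Pgam2.

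From the triose phosphates to pyruvate, 5 of 8 genes fell and 0 rose at an adjusted p-value below 0.01 in edgeR, where 20.3% of all tested genes fell and 22.0% rose. Tpi1, triose phosphate isomerase, had 5091, 5353 and 6037 normalized counts with vehicle and 3081, 3670 and 4720 with BAM15. The ranges did not meet, and the log2 fold change was −0.54 (standard error 0.10, edgeR adjusted p = 0.000216). Pkm, the pyruvate kinase of muscle and most other tissues, whose M1 and M2 splice forms are not separated by a gene count, had 18836, 21253 and 22801 with vehicle and 12704, 14645 and 17737 with BAM15. Its counts fell by 0.50 on the log2 scale (standard error 0.09, edgeR adjusted p = 0.000217), again without overlap.

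Phosphoglycerate mutase moves the phosphate of 3-phosphoglycerate, and both of its genes fell. Pgam1, the ubiquitous form, had 136, 147 and 190.2 normalized counts with vehicle and 49.0, 75.9 and 113 with BAM15, a log2 fold change of −0.98 (standard error 0.20, edgeR adjusted p = 0.000615). Pgam2, the muscle form, had 2233, 2579 and 2869 with vehicle and 1591, 1784 and 2202 with BAM15, a log2 fold change of −0.47 (standard error 0.09, edgeR adjusted p = 0.000371). Neither gene's groups overlapped. Pgam1 lay just under the 2-fold limit and passed it in 10 of 22 alternative settings. Eno3, the muscle enolase, had 20296, 22398 and 24256 with vehicle and 18135, 18753 and 20099 with BAM15, and the smallest change of the 13 genes, −0.25 (standard error 0.06, edgeR adjusted p = 0.00206). Its BAM15 libraries still lay below all vehicle libraries.

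Gapdh, Pgk1 and Eno1 did not pass the test. Gapdh, which makes the NADH of glycolysis and is often used as a reference gene, had 947, 1204 and 1788 normalized counts with vehicle and 396, 1093 and 2439 with BAM15, so the BAM15 libraries spanned the vehicle range on both sides. Its log2 fold change of 0.02 had a standard error of 0.41, larger than that of every other member but Pfkfb1. When the final 400 bases of its transcripts were cut into overlapping windows of 50 bases, 87.8% of these were found in other genes, 113 of 117 of them pseudogenes. For Eno1, the ubiquitous enolase, 82.4% of windows are shared, and its counts were 331 ± 54.6 with vehicle and 314 ± 52.8 with BAM15. Reads shared between genes may be split or dropped in counting, so the counts of Gapdh and Eno1 are uncertain. Pgk1, phosphoglycerate kinase, had only 43.6 ± 10.0 and 55.1 ± 29.5 counts with no shared window. In all, 27 of the 38 genes had no shared window, and Ldha shared 12.9% and Tpi1 13.0% of theirs.

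**Figure D3:**
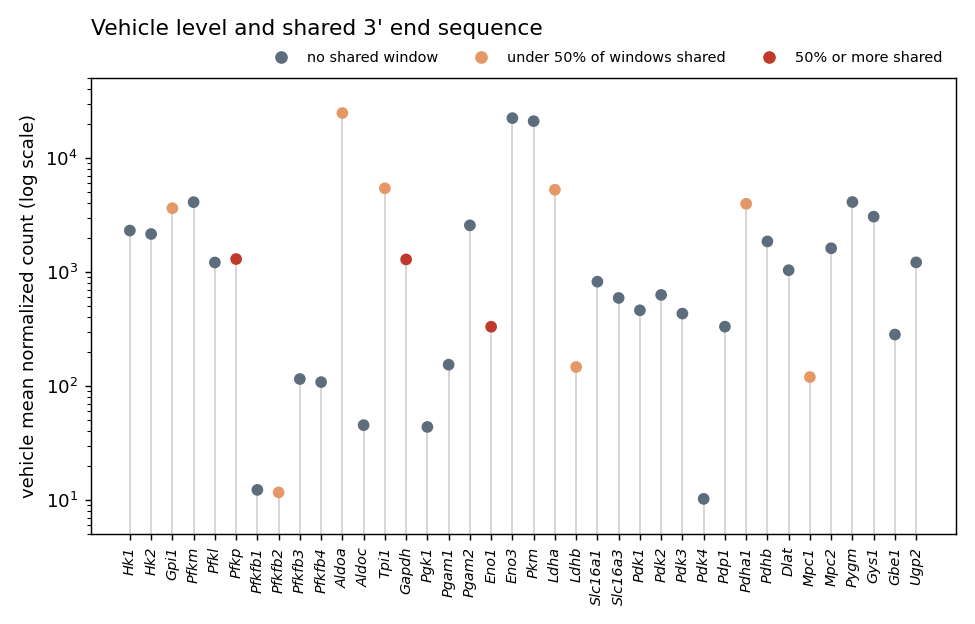
Mean vehicle normalized count (y axis, log scale) of each of the 38 genes, coloured by the share of 50-base windows in its 3′ end that also occur elsewhere. Gapdh, Eno1 and Pfkp are the 3 genes with 50% or more of windows shared, and 27 genes have none.

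Lactate dehydrogenase and the monocarboxylate transporters decide how pyruvate leaves the cytosol as lactate. Ldha (chromosome 7, 46841475 to 46855627) had 4897, 5356 and 5589 normalized counts with vehicle and 2095, 2529 and 3504 with BAM15. All BAM15 libraries were lower, and the log2 fold change was −1.01 (standard error 0.11, edgeR adjusted p = 1.38e-06). It passed the 2-fold limit in 18 of 22 alternative settings, and did not pass it without BAM15 library 1, 2 or 3 or without vehicle library 5, where the log2 fold change was between −0.95 and −0.99. Ldhb, the heart subunit, was 147 ± 10.4 with vehicle and 145 ± 17.4 with BAM15 (log2 fold change −0.02, standard error 0.10, edgeR adjusted p = 0.882). Ldha still made up 94.6% ± 1.2 of the counts of both subunits with BAM15, against 97.3% ± 0.179 with vehicle.

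Slc16a3 (chromosome 11, 120948480 to 120960868) had 529.9, 589 and 707 normalized counts with vehicle and 127, 139 and 192 with BAM15. Even the highest BAM15 library, number 2, was far below the lowest vehicle library, and Slc16a3 fell by 2.03 on the log2 scale (standard error 0.11, edgeR adjusted p = 6.34e-10), the largest change among the 38 genes. Slc16a1 (chromosome 3, 104638668 to 104658462) had 715, 829.8 and 899.9 with vehicle and 1642, 2129 and 2427 with BAM15. Its groups were as clearly apart in the other direction, with a log2 fold change of 1.32 (standard error 0.09, edgeR adjusted p = 1.01e-08). Slc16a3 therefore made up 41.8% ± 2.76 of the 3′ end counts of both transporters with vehicle and 6.64% ± 1.01 with BAM15, while their sum was 1415 ± 105 with vehicle and 2205 ± 290 with BAM15. Emb, which encodes embigin, an ancillary protein of some monocarboxylate transporters, rose from 140.4 ± 18 to 353 ± 55.1 (log2 fold change 1.33, standard error 0.12, edgeR adjusted p = 1.62e-07).

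Pyruvate dehydrogenase kinases phosphorylate and inhibit the complex. Pdk1 (chromosome 2, 71873224 to 71903858), a known hypoxia-responsive gene, had 382, 465.8 and 557 normalized counts with vehicle and 168, 201 and 300.4 with BAM15. These ranges did not overlap, and Pdk1 fell by 1.08 on the log2 scale (standard error 0.14, edgeR adjusted p = 9.15e-06). Pdk3 had 378, 446 and 465.8 with vehicle and 276, 313 and 351 with BAM15, a log2 fold change of −0.48 (standard error 0.08, edgeR adjusted p = 0.000124), likewise without overlap. Pdk2, the kinase with the highest count of the 4, was 629.6 ± 54.0 with vehicle and 734 ± 154 with BAM15 and did not pass (edgeR adjusted p = 0.130). Pdk4, the fasting-responsive muscle kinase, had only 10.2 ± 4.62 and 16.7 ± 4.74 counts (log2 fold change 0.69, standard error 0.31, edgeR adjusted p = 0.0712). Summed kinase counts overlapped between the groups, at 1533 ± 87.2 with vehicle and 1278 ± 150 with BAM15. Pdp1, the phosphatase that reactivates the complex, was 332 ± 20.1 and 353 ± 57.7.

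Of the genes that bring pyruvate into mitochondria and oxidise it, 0 of 5 passed edgeR's test at an adjusted p-value below 0.01. Of all tested genes, 42.3% passed. All 5 had overlapping groups, while the groups did not overlap for 34.2% of all tested genes. Pdha1, the catalytic alpha subunit, was 3970 ± 182 with vehicle and 3900 ± 251 with BAM15. Pdhb, the beta subunit, was 1856 ± 87.8 and 1747 ± 491, and Dlat, the acetyltransferase, was 1037 ± 39.9 and 974 ± 167. The carrier subunits Mpc1 and Mpc2 were 119.7 ± 8.57 and 1617 ± 69.5 with vehicle and 113 ± 13.1 and 1605 ± 161 with BAM15. Log2 fold changes of these 5 genes ran from −0.09 to −0.01. Part of the 3′ ends of Pdha1 and Mpc1 is covered by exons of other genes on the opposite strand, over 176 and 299 bases.

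None of the 4 glycogen genes among the members passed the test, where 42.3% of all tested genes did. Pygm, the muscle glycogen phosphorylase, was 4113 ± 161 with vehicle and 3991 ± 578 with BAM15 (edgeR adjusted p = 0.682). Gys1, the muscle glycogen synthase, was 3061 ± 183 and 2671 ± 357, with a log2 fold change of −0.20 (standard error 0.08, edgeR adjusted p = 0.0519). The branching enzyme Gbe1 was 282 ± 16.3 and 273 ± 18.8, and Ugp2, which makes the UDP-glucose used by the synthase, was 1215 ± 89.6 and 1278 ± 152.

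To set each muscle isoform against its counterpart, the log2 ratio of their normalized counts was taken within each library, where library scaling cancels, for 12 pairs. The groups were compared by an exact two-sided permutation test over the 12 libraries, with Benjamini-Hochberg adjustment over the 12 pairs. At an adjusted p below 0.05, 8 pairs differed, 6 toward the muscle isoform and 2 away from it. Pairs of other genes were not tested, so these counts have no share to stand against. Singly, 42.3% of all tested genes passed an adjusted p below 0.01 in edgeR. Pfkm and Pdk4 recur among the pairs, which are therefore not independent. A shift toward the muscle isoform need not be a rise of it. In those 6 pairs only Hk2 was called higher by edgeR, and Pgam2 was called lower. Pfkm, Pdk4, Pygm and Aldoa were not called. For 6 of the 8 pairs the exact p was 0.00216, the smallest this test can give (adjusted p = 0.00433). The differences carry no information apart from the counts of the genes already given, but they show which isoform the balance moved to.

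Toward the muscle isoform, the ratio of Pfkm to Pfkl was 1.77 ± 0.18 with vehicle and 3.42 ± 0.21 with BAM15 (mean ± SD of log2 ratios, n = 6, exact permutation adjusted p = 0.00433). That of Hk2 to Hk1 was −0.10 ± 0.18 with vehicle and 1.21 ± 0.19 with BAM15 (exact permutation adjusted p = 0.00433). With vehicle the hexokinases were about level, with Hk2 the more counted in vehicle libraries 4 and 6, while Hk2 was the more counted in every BAM15 library. Pdk4 against Pdk1 moved from −5.55 ± 0.57 to −3.70 ± 0.41 (exact permutation adjusted p = 0.00433), with Pdk4 still far less counted than Pdk1. Pygm against Pygb, the brain phosphorylase, moved from 2.97 ± 0.12 to 3.36 ± 0.15 (exact permutation adjusted p = 0.00433), as Pygb fell by 0.43 on the log2 scale. The groups of these 4 pairs did not overlap. In the pair of Pgam2 and Pgam1 the difference of 0.56 came with overlapping groups (exact permutation adjusted p = 0.0186), and it was 0.27 among libraries numbered 1 to 3 and 0.86 among those numbered 4 to 6. In the pair of Aldoa and Aldoc it was 0.47, also with overlap (exact permutation adjusted p = 0.0390), and it passed in only 5 of 14 alternatives.

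Away from the muscle isoform, the ratio of Slc16a3 to Slc16a1 fell from −0.48 ± 0.16 to −3.82 ± 0.23, the largest shift of the 12 pairs (exact permutation adjusted p = 0.00433). The ratio of Ldha to Ldhb fell from 5.16 ± 0.10 to 4.16 ± 0.36 (exact permutation adjusted p = 0.00433). In neither pair did the groups overlap. The 4 pairs that did not pass were Pfkm with Pfkp (difference 0.04), Eno3 with Eno1 (−0.17), Pdk4 with Pdk2 (0.56) and Pfkfb1 with Pfkfb3 (−0.98), whose exact permutation adjusted p-values were 0.576, 0.401, 0.263 and 0.371.

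**Figure D4:**
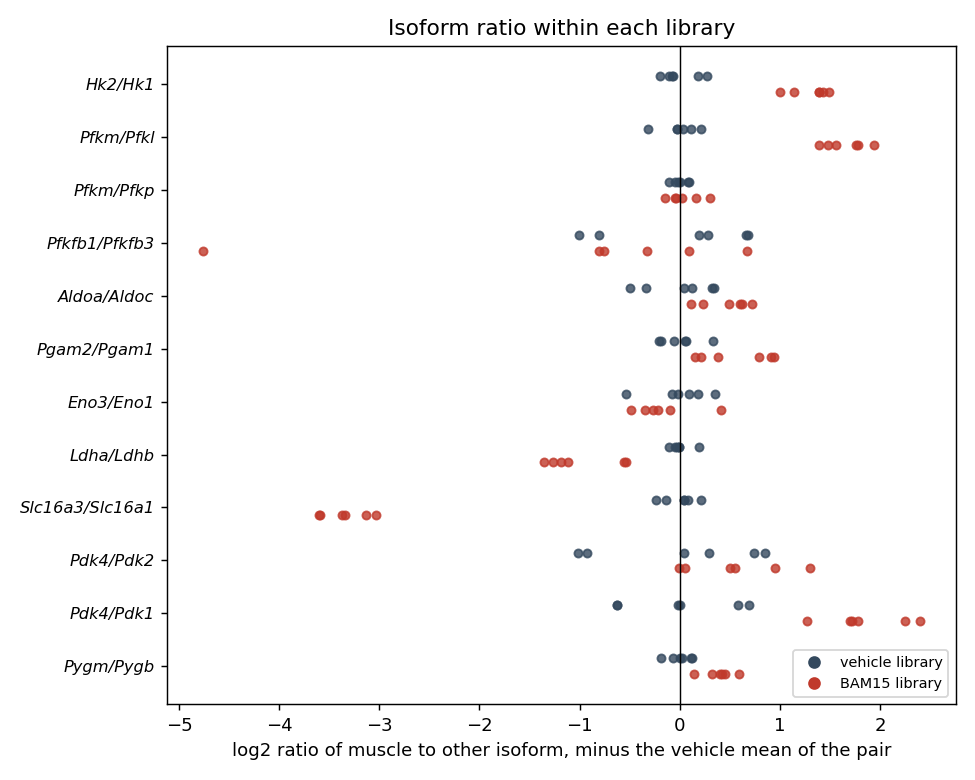
Log2 ratio of the muscle to the other isoform in each library, minus the vehicle mean of the pair (x axis), for 12 pairs, with vehicle libraries in dark grey above and BAM15 libraries in red below. Pfkm/Pfkl and Hk2/Hk1 lie to the right of the vehicle points, Slc16a3/Slc16a1 and Ldha/Ldhb lie to the left, and the isolated point of Pfkfb1/Pfkfb3 is BAM15 library 2, with 0 counts of Pfkfb1.

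The BAM15 libraries numbered 4 to 6 stood apart from those numbered 1 to 3, with 38.8% of all genes past an adjusted p of 0.05 in edgeR. Of the 38 genes, 23 did, 10 higher and 13 lower in numbers 4 to 6. Between vehicle libraries with these numbers 0 genes differed by the same edgeR test. Of the 12730 genes tested, 696 had an unadjusted p below 0.05 there, a level that chance alone gives for about 5% of genes. Among these 696 were 2 of the 38. The labels name no batch behind these numbers. Fitted separately in numbers 1 to 3 and in numbers 4 to 6, all 13 called genes were called in both with the same direction. These genes had been picked by the test on all 12 libraries, so this agreement is partly built in. The share of all called genes that were called in both is not given here. Log2 fold changes within numbers 1 to 3 and 4 to 6 were −1.21 and −0.86 for Ldha, −1.33 and −0.88 for Pdk1, and −0.68 and −1.44 for Pgam1, but only −1.97 and −2.11 for Slc16a3.

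A test of the difference between these effects passed an adjusted p of 0.05 for 3 of the 38 genes, against 2.66% of all genes. Pdk2 had a log2 fold change of 0.49 in numbers 1 to 3 and −0.09 in numbers 4 to 6 (edgeR adjusted p of the difference = 0.0444). Pdhb had −0.43 and 0.18 (edgeR adjusted p = 0.0442), and Pygm had 0.14 and −0.24 (edgeR adjusted p = 0.0477). All 3 lie close to the threshold, and the number of members past it was between 0 and 13 when 1 library was left out, with 13 reached without BAM15 library 4. The share of all genes past it in those fits is not given here, so these numbers have none to stand against. Gapdh differed most in size, with −0.99 and 0.49, and its BAM15 libraries held 652, 396 and 621 normalized counts in numbers 1 to 3 and 1534, 2439 and 2217 in numbers 4 to 6 (edgeR adjusted p of the difference = 0.0513).

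**Figure D5:**
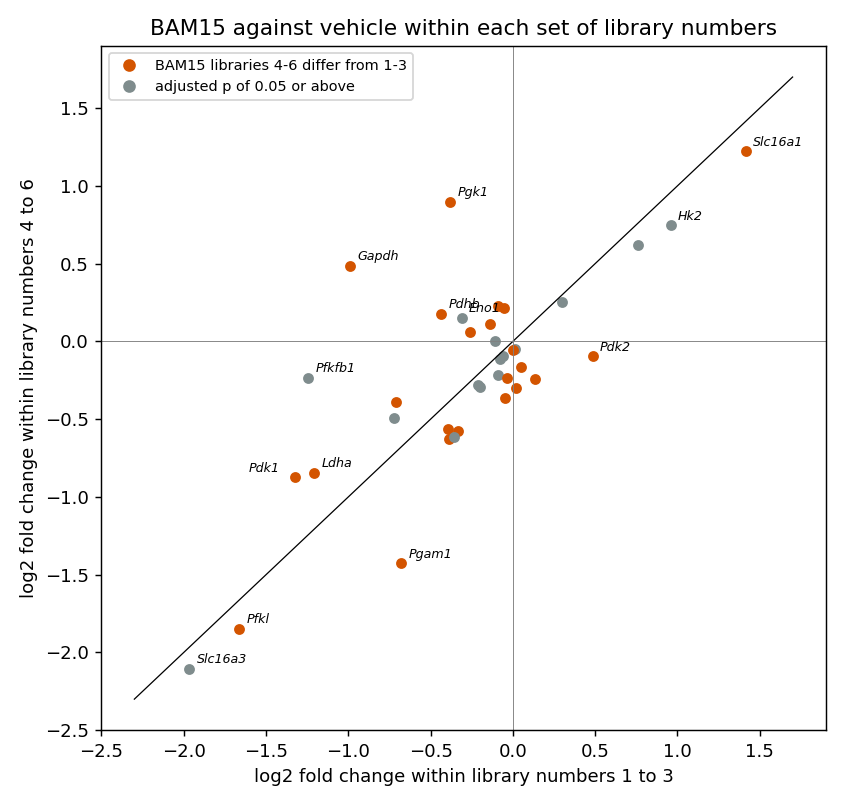
Log2 fold change of each of the 38 genes within library numbers 4 to 6 (y axis) against that within numbers 1 to 3 (x axis), with the line of equality and, in orange, genes that differed between BAM15 libraries 4 to 6 and 1 to 3. Slc16a1, Hk2, Pfkl and Slc16a3 lie close to the line, and Gapdh and Pgk1 lie farthest above it.

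Around the 38 genes, 93 further genes of glycolysis, pyruvate and lactate handling, glycogen, the pentose phosphate pathway and NADH shuttles were listed, of which 69 were tested. At an adjusted p-value below 0.01, 16 rose and 13 fell, shares close to the 22.0% and 20.3% of all tested genes, and their median log2 fold change was −0.02. Past all 3 thresholds, 6 rose and 1 fell, where 3.70% and 3.58% of all genes did. The counts of single lists below stand against the same shares. Among the 21 tested glycogen genes, 5 rose and 5 fell. Stbd1, which anchors glycogen to membranes, rose from 217 ± 30.2 to 1289 ± 558 (log2 fold change 2.57, standard error 0.27, edgeR adjusted p = 5.12e-06), and its log2 fold change was 2.08 in libraries numbered 1 to 3 and 2.87 in those numbered 4 to 6. The glycogen-targeting subunits of protein phosphatase 1 moved both ways, with Ppp1r3c up from 59.0 ± 10.5 to 141 ± 26.4 and Ppp1r3a, the striated muscle form, down from 85.3 ± 6.49 to 36.5 ± 11.2 (edgeR adjusted p = 6.03e-06 and 3.07e-05). Pgm2l1, a glucose 1,6-bisphosphate synthase, fell by 0.66 on the log2 scale.

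Of 12 tested genes of pyruvate and lactate handling, 3 rose and 2 fell. Gpt2, the mitochondrial alanine aminotransferase that interconverts pyruvate and alanine, rose from 724 ± 44.7 to 2471 ± 106 (log2 fold change 1.77, standard error 0.06, edgeR adjusted p = 1.59e-12), while its cytosolic counterpart Gpt fell by 0.38 on the log2 scale and Pdp2, the other phosphatase of pyruvate dehydrogenase, fell by 0.60. Among 14 other glycolysis genes, 4 rose and 3 fell. Adpgk, an ADP-dependent glucokinase, rose from 53.6 ± 14.3 to 147 ± 78.5 with overlapping groups (log2 fold change 1.46, standard error 0.31, edgeR adjusted p = 0.00137), and by 0.78 in numbers 1 to 3 and 1.91 in numbers 4 to 6. Galt of galactose metabolism rose by a log2 fold change of 0.79, and Bpgm, which makes 2,3-bisphosphoglycerate, fell by 0.54. In the pentose phosphate pathway 3 of 11 rose and 0 fell by edgeR's test, with log2 fold changes of 0.69 for G6pdx, the entry enzyme, and 0.41 for Prps1. Of the 11 genes of NADH shuttles, 1 rose and 3 fell, with Got1, the cytosolic aspartate aminotransferase, at 1.11 (standard error 0.08, edgeR adjusted p = 2.26e-08), Gpd1 at −0.59 and Gpd1l at −0.35.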

How the data were processed

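Gene expression was measured in 12 libraries of C2C12 myotubes, 6 per condition. The authors prepared 3′ QuantSeq libraries, and aligned and counted the reads with BlueBee software, and the counts were deposited as whole numbers per Ensembl gene without normalization. The methods give reads of 75 bp and the labels reads of 50 bp. Per the labels the build was GRCm38 and normalization used DESeq2 1.22.2. The authors also deposited a normalized signal, which holds each count over a size factor of its library (0.836 to 1.07) and gave the gene symbols only. The 11 columns of other samples were not used.

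In R 4.3.3, edgeR 4.0.16 was run with filterByExpr, TMM and a robust quasi-likelihood fit with condition as its term, p-values were adjusted over 12730 genes by the Benjamini-Hochberg method, and genes were called at an adjusted p below 0.01. The 3 thresholds add a base mean above 50 and a change above 2-fold. The filter removed 2383 genes. Standard errors are the log2 fold change divided by the square root of F. Isoform ratios used a pseudocount of 0.5 and exact permutation tests in scipy 1.17.1. Shared sequence was searched in 50-base windows of the last 400 bases of GENCODE M21 protein-coding transcripts. The tests were tested on simulated data.

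Replicates differed by more than sampling noise (chi-square per gene 5.00 to 25.8 over 15 vehicle pairs and 6.56 to 85.2 over 15 BAM15 pairs). All 38 genes are named. Other pathway genes are named where they passed the 3 thresholds or were among the 2 largest changes in each direction of their list at an adjusted p below 0.01. A gene that this rule takes in is not reported here. Genes, lists and isoform pairs were chosen with earlier results of these data known. Alternatives were other scalings, filters, tools (DESeq2 1.42.0, limma-voom 3.58.1) and blocks, and each library left out in turn.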

Additional observations from a re-analysis of the deposited data

Results flagged for a closer look

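In each condition the highest or lowest of the 6 libraries was checked for a gap to the rest (Dixon's 95% criterion) in 76 groups, of which chance gives about 5%. A gap was found in 2 groups. For Pfkm, vehicle library 3 had 4289 normalized counts while the others had 4040 to 4112, a gap of 0.711 of the range. For Slc16a3, BAM15 library 2 had 192 normalized counts while the others had 127 to 149, a gap of 0.667 of the range.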

How the results depend on the processing

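Of 833 values of single members over 22 alternatives (the separate library numbers aside), 803 kept their direction and side of the threshold, 8 passed it in addition and 22 changed sign. None of the 13 called members lost its call or changed sign in any of these alternatives. The number called was between 13 and 16 in these alternatives, and 14 at an adjusted p below 0.05, and no scaling moved the median log2 fold change of all genes by more than 0.1. These changes of sign were in 7 members, and in 13 once the separate library numbers are included, and none of the 13 had passed the test. With 1 library left out, log2 fold changes lay between −0.11 and 0.00409 for Gpi1, −0.25 and 0.21 for Gapdh, −0.13 and 0.010 for Eno1, −0.0559 and 0.0345 for Ldhb, −0.19 and 0.00060 for Pdhb, −0.0639 and 0.0183 for Mpc2 and −0.0924 and 0.00556 for Pygm. With libraries 1 to 3 alone the values were 0.0428 for Gpi1, 0.0154 for Pfkp, −0.99 for Gapdh, which passed the test there, −0.38 for Pgk1, 0.0092 for Ldhb, −0.0597 for Pdp1, 0.13 for Pygm and −0.0917 for Ugp2. With libraries 4 to 6 alone they were 0.14 for Eno1, −0.10 for Pdk2, 0.17 for Pdhb, 0.0485 for Dlat and 0.10 for Mpc2. For Gapdh the value was −0.0049 with library size only, −0.27 with limma-voom, −0.24 with the replicate block and −0.22 with a block for numbers 1 to 3 against 4 to 6. The number of members whose effect differed between library numbers was 5 with library size only and between 0 and 13 with 1 library left out, where fewer libraries were fitted. The shares of all genes in these settings are not given here. The library numbers were not taken as pairs, since same-numbered deviations from the group means correlated at more than 0.1 in only 4 of 6 numbers, and 2 of 6 BAM15 libraries correlated best with their own number. BAM15 libraries 1 to 3 all correlated best with vehicle library 3, and BAM15 libraries 4 to 6 all with vehicle library 6. With the replicate block 14 members were called, and 0 isoform pairs passed. An exact sign-flip test of 6 differences cannot give a p below 0.03125, and the smallest adjusted p over the pairs was 0.0625. How low the adjusted p can fall depends on how many pairs reach that limit, so this setting has little power. With 1 library left out 7 or 8 isoform pairs passed. Depth limited most Pfkfb1, Pfkfb2 and Pdk4, the 3 least counted members.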
